A study of Mus musculus with 6 samples.

Results

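The miR-29 family was followed on miRNA arrays of CD31hiEmcnhi (type H) and CD31loEmcnlo (type L) endothelial cells of mouse bone. Its members were taken by name: mmu-miR-29a-3p, mmu-miR-29b-3p, mmu-miR-29c-3p, mmu-miR-29a-5p and mmu-miR-29b-1-5p, 5 of the 1881 mouse miRNAs on the array. The other family arms on the array, mmu-miR-29b-2-5p and mmu-miR-29c-5p, bring the family to 7 and are described beside them. Both cell types were sorted from bone marrow of wild type C57BL/6 mice aged 1 month, and each was measured on 3 arrays labelled as biological replicates. No sample carried an engineered allele or a drug. The labels give the mice as male and the methods give them as female. The labels also describe growth of the sorted cells on fibronectin in endothelial medium, a step that the methods for the arrays leave out, so the RNA may come from cultured cells. How many mice entered each array is not given in the sources used here.

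Type H vessels are the capillaries near the growth plate and along the endosteum that are surrounded by osteoprogenitors, and type L vessels are the sinusoids of the marrow cavity. A miRNA pairs with messenger RNAs mainly through its seed, bases 2 to 8, and lowers their translation and stability. The miR-29 family is best known for holding down extracellular matrix genes, among them fibrillar collagens, basement membrane collagens, elastin and fibrillin, and its loss accompanies fibrosis in many organs. In cells of the osteoblast lineage it promotes differentiation and targets osteonectin and inhibitors of Wnt signalling. No messenger RNA or protein was measured on these arrays, so the values below concern the miRNAs alone.

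The guide strands, the arms usually loaded into the silencing complex, are shown because their shared seed defines the family. The seed is in capitals, and the sequences are those of RefSeq (GRCm38.p6), written 5′ to 3′.
mmu-miR-29a-3p: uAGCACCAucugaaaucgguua
mmu-miR-29b-3p: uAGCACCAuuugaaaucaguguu
mmu-miR-29c-3p: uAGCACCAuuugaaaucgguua
The seed AGCACCA was found in 3 mature mouse miRNAs of RefSeq, which are these 3. Counted from the 5′ end, mmu-miR-29c-3p differs from mmu-miR-29a-3p by the single change C10U. From mmu-miR-29a-3p to mmu-miR-29b-3p there are 5 differences, namely C10U, G18A, U21G, A22U and 1 more base at the 3′ end. The 3′ end of miR-29b is known for a motif that directs it to the nucleus.

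The opposite arms do not share this seed. They are shown, again with bases 2 to 8 in capitals, because each comes from 1 known hairpin, whereas mmu-miR-29b-3p comes from both of its hairpins.
mmu-miR-29a-5p: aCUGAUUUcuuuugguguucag
mmu-miR-29b-1-5p: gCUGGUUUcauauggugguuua
mmu-miR-29b-2-5p: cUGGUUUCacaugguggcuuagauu
mmu-miR-29c-5p: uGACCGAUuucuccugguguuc
The family is encoded as 2 pairs of hairpins. Mir29a (chr6:31062660-31062747) and Mir29b-1 (chr6:31063023-31063093) lie on the minus strand with 275 bases between them. Mir29b-2 (chr1:195037040-195037120) and Mir29c (chr1:195037547-195037634) lie on the plus strand with 426 bases between them. All positions are of GRCm38.p6. Within the Mir29a hairpin, mmu-miR-29a-3p takes chr6:31062673-31062694 and mmu-miR-29a-5p takes chr6:31062711-31062732. The mature mmu-miR-29c-3p lies at chr1:195037600-195037621. The identical mmu-miR-29b-3p sequence lies at chr6:31063025-31063047 and at chr1:195037091-195037113, so its signal is that of both clusters together. The arm mmu-miR-29b-1-5p, at chr6:31063067-31063088, belongs to the chromosome 6 cluster alone.

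Each guide strand was read by 2 probes in 30 spots. The longest probe of each is shown because closely related strands could be read by each other's probes, with capitals at the bases opposite positions where the 3 strands differ.
mmu-miR-29a-3p probe: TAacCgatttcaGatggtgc
mmu-miR-29b-3p probe: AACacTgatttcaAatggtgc
mmu-miR-29c-3p probe: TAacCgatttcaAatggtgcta
Aligned without gaps, the probes of mmu-miR-29a-3p and mmu-miR-29c-3p have 1 mismatch to the other strand. The mmu-miR-29b-3p probes have 5 mismatches to mmu-miR-29a-3p and 4 to mmu-miR-29c-3p. Whether a probe also read a related strand was not tested.

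The arrays carried a 1-colour signal, and the signal of a miRNA was the sum of its probes' background-subtracted total intensities. A miRNA counted as detected where at least 1 probe was over 3 times its own error. By that rule the type H arrays had 263 to 281 detected miRNAs and the type L arrays 295 to 309. Each cell type had a slide of its own, so differences between slides and between cell types cannot be told apart. Control features gave a measure of the slides: the type H one was the brighter for 10 of 10 of those detected on every array, with log2 differences of 0.21 to 1.47 and a median of 0.60. Neither of the 2 endothelial markers on the array, the arms of miR-126a, was detected on any array (0 of 6), and so the labelled cell type is not borne out by them. None of the 6 haematopoietic markers was detected on any array (0). Of 7 stromal and mural markers, 6 were tested and 5 were detected on all 6 arrays. The summed signal of these stromal and mural markers was 823 to 1050 on the type H arrays and 705 to 813 on the type L arrays, and 4 of the 6 tested rose, 0 fell and 2 did not pass the test, where 44.7% of all 311 miRNAs tested rose. One of those that rose, mmu-miR-145a-5p, was detected on 3 type H arrays and 2 type L arrays and so entered the test through type H alone. Their part in the differences below was not tested. In RNA of a whole cell population, fewer cells that hold a miRNA and less of it per cell cannot be told apart.

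The guide strands mmu-miR-29a-3p and mmu-miR-29b-3p were brighter in type H than in type L ECs, by 1.38-fold and 1.45-fold before normalization, while mmu-miR-29c-3p was at 0.969-fold. The log2 differences of mmu-miR-29a-3p and mmu-miR-29b-3p, 0.46 and 0.51, were below the median of 0.60 for the control features. They were above the median of -0.12, without normalization, of the 231 miRNAs detected on all 6 arrays, by 0.57 and 0.63. The part of the slides in these differences was not tested. The passenger arm mmu-miR-29b-1-5p was near the detection limit and mmu-miR-29a-5p was detected on no array. After quantile normalization 2 of the 3 guide strands, all detected on all 6 arrays, passed an adjusted p of 0.05, both higher in type H ECs (limma with Benjamini-Hochberg adjustment over all 311 miRNAs tested). mmu-miR-29b-1-5p also passed, but it entered the test only through type H, where every array detected it, and so its call is no support for a rise. Most miRNAs differed between these arrays, since 86.8% of the 311 passed, and 44.7% of the 311 were higher and 42.1% lower in type H ECs. The guide strands that rose are read against this background, in which a change was usual.

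mmu-miR-29a-3p had signals of 1551, 1286 and 1223 on the type H arrays and of 929, 1003 and 1014 on the type L arrays before normalization. The lowest type H value exceeded the highest type L value, as it did for 31.8% of the 311 miRNAs. The means were 1353 ± 174 and 982 ± 46.4 (SD, n = 3 each). After quantile normalization the log2 signal was 10.31 ± 0.074 in type H ECs and 10.01 ± 0.090 in type L ECs (SD, n = 3 each), still with no overlap. The share of the 311 miRNAs without overlap was not counted after normalization. With 44.7% of them past the threshold and higher in type H ECs, this separation is not shown to be unusual. The log2 fold change was 0.31 (standard error 0.062, 95% interval 0.15 to 0.46, adjusted p = 0.0043 from limma). Quantile normalization left 4 distinct values on the 6 arrays, so this spread and interval are understated. Of the 311 miRNAs, 112 had a higher log2 fold change, so this rise was a modest one among those measured.

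The probes of mmu-miR-29a-3p gave different folds, a difference that was not tested. Before normalization the 20-base probe was 1.41-fold higher in type H ECs and the 19-base probe 1.22-fold higher. The median log2 fold change of the 231 miRNAs detected on all 6 arrays was 0.11 after quantile normalization, and relative to it mmu-miR-29a-3p was higher by 0.20. In the log2 table that the authors deposited, mmu-miR-29a-3p differed by 0.19 (adjusted p = 0.0017 from limma) beside a median of 0.19. There it lay on that median, and the 3 type L arrays shared 1 value of 10.08, so the spread in that table is understated.

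mmu-miR-29b-3p had signals of 350, 211 and 292 on the type H arrays and of 174, 194 and 220 on the type L arrays. Type H replicate 2 lay below type L replicate 3, so the groups overlapped before normalization. The means were 284 ± 69.6 and 196 ± 22.9 (SD, n = 3 each). Its probes moved alike, with 1.46-fold for the 20-base probe and 1.45-fold for the 21-base probe. After quantile normalization the log2 signal was 8.16 ± 0.23 against 7.62 ± 0.089 (SD, n = 3 each). The groups no longer overlapped, but the share of the 311 miRNAs without overlap was not counted there. The log2 fold change was 0.54 (standard error 0.12, 95% interval 0.23 to 0.84, adjusted p = 0.0077 from limma), or 0.43 above the median of the miRNAs detected on all arrays. Here 2 type H arrays shared 1 normalized value of 313, which also understates the spread. Of the 311 miRNAs, 81 had a higher one. With all 1881 miRNAs in the test the same difference had an adjusted p of 0.051 from limma and was no longer past the threshold.

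mmu-miR-29c-3p had signals of 61.4, 49.0 and 48.2 on the type H arrays and of 51.4, 54.7 and 57.7 on the type L arrays. Type H replicate 1 was the highest of the 6 and the other type H arrays were the lowest, so the groups overlapped. The means were 52.8 ± 7.43 and 54.6 ± 3.15 (SD, n = 3 each). After quantile normalization the log2 fold change was 0.016 (standard error 0.034, 95% interval -0.068 to 0.10, adjusted p = 0.67 from limma). Relative to the median it was at -0.091. Quantile normalization gave 4 of the 6 arrays 1 shared value of 54.4, so the spread and the interval are understated. Another scaling turned the direction: with arrays scaled to a 75th percentile, that of the 231 miRNAs seen on every array, the log2 fold change was -0.15 (adjusted p = 0.018 from limma), past the threshold in the opposite direction. With no normalization at all it was -0.054 (adjusted p = 0.72).

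**Figure D1:**
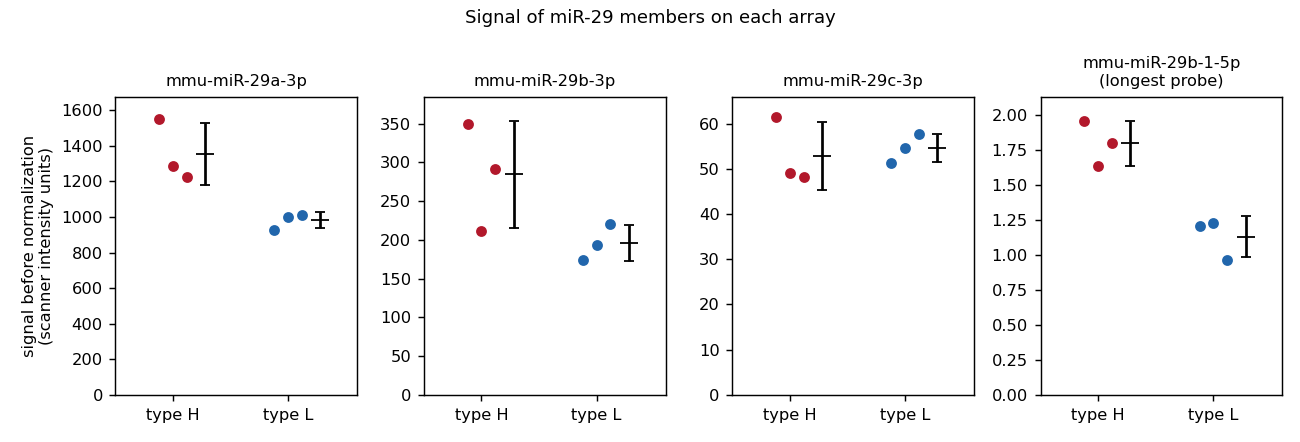
Signal before normalization, in scanner intensity units on a linear axis from 0, of mmu-miR-29a-3p, mmu-miR-29b-3p, mmu-miR-29c-3p and the longest probe of mmu-miR-29b-1-5p on each array. Points are arrays, and bars give the mean ± SD (n = 3). The type H arrays lie above all type L arrays for mmu-miR-29a-3p and for the mmu-miR-29b-1-5p probe, and overlap them for the other strands. They did so for 31.8% of the 311 miRNAs tested, and the share of single probes was not counted.

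The scaling moves the median of all miRNAs, so each change is also given against that median. The median log2 fold change of the 231 miRNAs detected on all arrays was 0.11 after quantile normalization, -0.22 after 75th percentile scaling and -0.12 without normalization. Of the miRNAs past the threshold, the share higher in type H ECs was 51.5% with quantile normalization, 35.8% with the 75th percentile and 40.3% with none. Against those medians mmu-miR-29a-3p was higher by 0.57 and mmu-miR-29b-3p by 0.63 after 75th percentile scaling. Both therefore stayed above the middle of the distribution under either scaling. Against the same medians mmu-miR-29c-3p was at 0.062, and at -0.091 after quantile normalization.

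**Figure D2:**
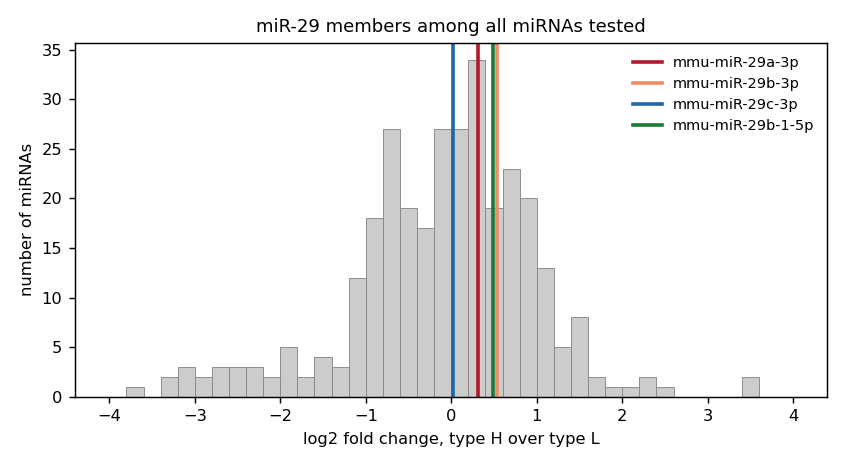
Number of miRNAs (vertical axis) by log2 fold change of type H over type L ECs (horizontal axis) for the 311 miRNAs tested after quantile normalization. Vertical lines mark the members, with mmu-miR-29c-3p at 0.016, mmu-miR-29a-3p at 0.31, mmu-miR-29b-1-5p at 0.49 and mmu-miR-29b-3p at 0.54, all within the bulk of the distribution.

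The guide strands were next compared with each other within each array, since a ratio within an array does not depend on any factor that scales a whole array. A slide difference that is unequal between probes would stay in the ratio. Between the slides, control features differed unequally, by 0.21 to 1.47 on the log2 scale, and the part of this in the ratios was not tested. Such a ratio shows unequal change and gives no level of one strand against another. Before normalization the log2 ratio of mmu-miR-29c-3p to mmu-miR-29a-3p was -0.51 in type H relative to type L ECs, with SDs of 0.031 in each cell type (n = 3 each). No array of one cell type reached the other. By an exact two-sided permutation test p was 0.10, which is the lowest value possible with 3 arrays in each cell type, and 0.20 after adjustment over the 4 pairs compared. After quantile normalization the same difference was -0.29 (exact p = 0.10).

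The ratio of mmu-miR-29c-3p to mmu-miR-29b-3p also differed with no overlap, by -0.57 before normalization and -0.52 after it (exact p = 0.10 for each, adjusted 0.20). The ratio of mmu-miR-29b-3p to mmu-miR-29a-3p did not separate the cell types. It differed by 0.057 before normalization (exact p = 0.80) and by 0.23 after it (exact p = 0.20, adjusted 0.27), and its SD before normalization was 0.29 in type H ECs and 0.11 in type L ECs. Thus mmu-miR-29c-3p was lower relative to both other guide strands on every type H array, while the ratio between those 2 overlapped between the cell types. How often ratios between other miRNAs separate the cell types was not determined. With 86.8% of the 311 miRNAs past the threshold, such a separation is not shown to be particular to this family.

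**Figure D3:**
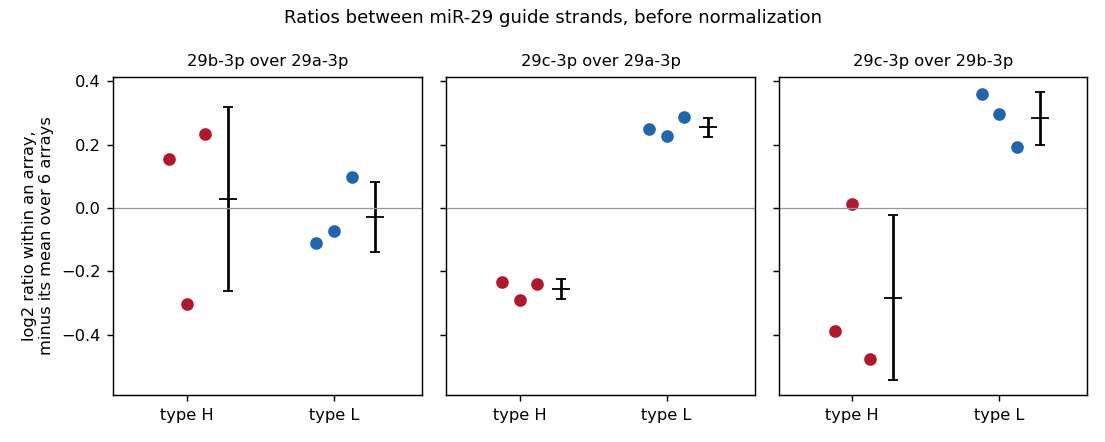
Log2 ratio between guide strands within an array before normalization, minus its mean over the 6 arrays (vertical axis), for type H and type L ECs. Points are arrays and bars give the mean ± SD (n = 3). The ratios with mmu-miR-29c-3p on top separate the cell types, by -0.51 and -0.57, and the ratio of mmu-miR-29b-3p to mmu-miR-29a-3p, at 0.057, does not.

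The passenger arm mmu-miR-29b-1-5p, which reports on the chromosome 6 cluster, was detected on 3 of 3 type H arrays and 2 of 3 type L arrays. Of its 4 probes only the longest was detected on any array. It is shown with the base that the next shorter probe lacks in capitals.
mmu-miR-29b-1-5p probe: taaaccaccatatgaaaccagC
This probe read 1.96, 1.64 and 1.80 on the type H arrays and 1.21, 1.22 and 0.960 on the type L arrays, with probe errors of 0.34 to 0.40. The cell types did not overlap, but type L replicate 3 was not above background and the arm entered the test through type H alone. Before normalization 31.8% of the 311 miRNAs tested had every type H array above every type L array. The share of single probes was not counted, and the values are given as a description with no test. The sum over all 4 probes was 2.61, 2.54 and 2.34 against 2.51, 1.92 and 1.97, and there the groups overlapped. After quantile normalization the fitted log2 fold change of the sum was 0.49 (adjusted p = 0.0082 from limma). That sum also holds the probes not above background. Before normalization the longest probe alone was 1.59-fold higher in type H ECs and the sum 1.17-fold higher.

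That call depends on the processing. With 75th percentile scaling the log2 fold change was 0.14 (adjusted p = 0.41 from limma) and with no normalization 0.24 (adjusted p = 0.11), neither past the threshold. With other treatments of the dim probes the size ran from 0.040 with normexp background correction to 3.42 in the authors' log2 table. The normexp correction added an offset of 50 to every spot, which compresses the log2 differences of dim miRNAs. The total signal deposited for mmu-miR-29b-1-5p was 1553, 1288 and 1224 on the type H arrays and 930, 1004 and 0.1 on the type L arrays. On each of the 5 arrays where the arm was detected, that total equalled its own detected probe plus the total of mmu-miR-29a-3p, within a relative tolerance of 1e-05. Nearly all of the deposited total was thus that of the other strand. The ratio of mmu-miR-29b-1-5p to mmu-miR-29b-3p was -0.048 in type H relative to type L ECs after quantile normalization (exact p = 0.80). It was -0.43 with normexp, 0.42 with the brightest probe, 0.84 with detected probes only and 2.90 in the authors' log2 table. Each was without overlap between the cell types (exact p = 0.10). The normexp ratio mostly carries the log2 fold change of mmu-miR-29b-3p, which was 0.47 with normexp. These data thus give the ratio no settled direction.

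mmu-miR-29a-5p, the passenger of the Mir29a hairpin, was detected on 0 of 6 arrays. Its 4 probes summed to between 1.17 and 2.16 and none was over 3 times its error. It did not pass the filter on low values, which asks that a miRNA be detected on every array of type H or of type L, and was not tested. The arms mmu-miR-29b-2-5p and mmu-miR-29c-5p, with 2 probes each, were also detected on no array. No passenger arm of the chromosome 1 cluster was thus measured, so no arm on these arrays reports on that cluster apart from mmu-miR-29c-3p.

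**Figure D4:**
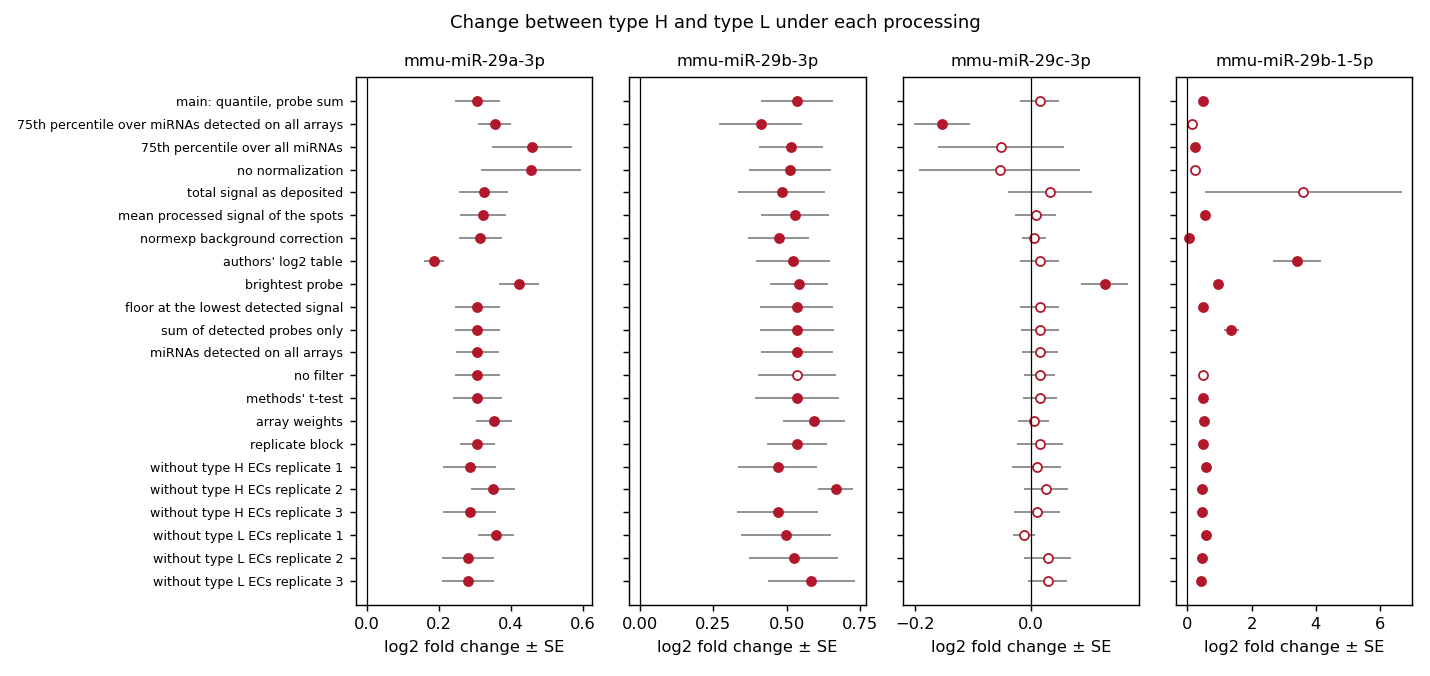
Log2 fold change of type H over type L ECs ± SE (horizontal axis, with its own range in each panel) for the 4 members tested, under each processing (vertical axis). Filled points passed an adjusted p of 0.05 and open points did not. mmu-miR-29a-3p lay between 0.19 and 0.46 and mmu-miR-29b-3p between 0.41 and 0.67, whereas mmu-miR-29c-3p lay on both sides of 0, from -0.15 to 0.13, and mmu-miR-29b-1-5p ran from 0.040 to 3.62.

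Other miRNAs widely studied in collagen, matrix or fibrosis biology were compared as a list of 28, all on the array. Of these, 16 were tested and 11 were detected on no array, among them the miR-200 family and miR-133, while mmu-miR-192-5p was detected on 1 type H array. Of the 16 tested, 10 rose in type H ECs, 2 fell and 4 did not pass the test, where 44.7% of all 311 miRNAs tested rose and 42.1% fell. All 16 were detected on all 6 arrays, and their median log2 fold change was 0.22. The 231 miRNAs detected on all 6 arrays had a median of 0.11, with 112 that rose and 81 that fell. After 75th percentile scaling 6 of the 16 rose and 7 fell, with a median of -0.062, beside 98 that rose and 176 that fell among all 311 and a median of -0.22 over the 231. The sign of the list's median thus turned with the scaling, as that of the background did.

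The largest rise of the list was that of mmu-miR-214-3p, a miRNA of stromal cells that restrains osteoblasts. Its signals of 212, 185 and 178 on the type H arrays lay above 110, 119 and 121 on the type L arrays, with a log2 fold change of 0.64 (adjusted p = 2.2e-05 from limma). mmu-let-7d-5p, of the let-7 family, followed with 0.50 (adjusted p = 5.7e-05). mmu-miR-30b-5p and mmu-miR-30a-5p, of a family studied with connective tissue growth factor, had 0.38 (adjusted p = 0.0023) and 0.35 (adjusted p = 8.9e-05). Of these, mmu-miR-30b-5p turned to -0.083 after 75th percentile scaling, while the others were still higher.

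The falls were those of mmu-miR-218-5p and mmu-miR-140-3p. mmu-miR-218-5p, a promoter of Wnt signalling in bone cells, had signals of 6.05, 4.99 and 4.89 on the type H arrays and of 10.6, 11.1 and 11.9 on the type L arrays. Its log2 fold change was -0.68 (adjusted p = 3.5e-05 from limma). mmu-miR-140-3p, from a hairpin best known in cartilage, was at -0.22 (adjusted p = 0.0042), whereas its opposite arm mmu-miR-140-5p was at 0.34 (adjusted p = 0.00082); the latter was named after its value was seen. The log2 fold change of mmu-miR-29b-3p, 0.54, lay between those of mmu-miR-214-3p and mmu-let-7d-5p, and that of mmu-miR-29a-3p, 0.31, beside that of mmu-miR-199a-5p.

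**Figure D5:**
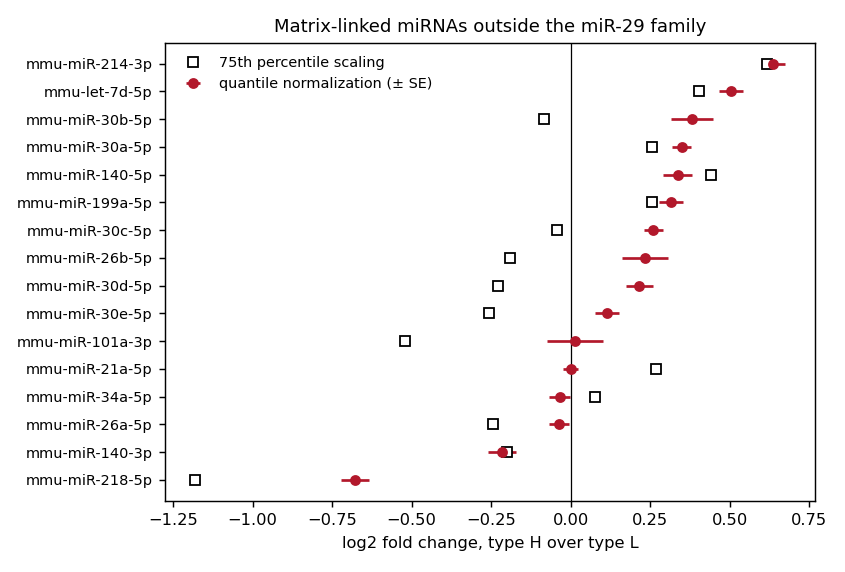
Log2 fold change of type H over type L ECs (horizontal axis) for the 16 matrix-linked miRNAs tested outside the miR-29 family. Filled circles are quantile-normalized values ± SE and open squares are values after 75th percentile scaling. mmu-miR-214-3p is highest at 0.64 and mmu-miR-218-5p lowest at -0.68, and several of the miR-30 family lie on opposite sides of 0 under the 2 scalings.

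The miRNAs whose profile was most like the mean of the 3 guide strands were found over the 6 arrays, from log2 values centred on each miRNA's own mean, among 228 others detected on all arrays. They were mmu-miR-199a-5p, with a root mean square difference of 0.043 on the log2 scale, mmu-miR-322-5p with 0.049, mmu-miR-181b-5p with 0.051, mmu-miR-30a-5p with 0.059 and mmu-miR-152-3p with 0.059. Their own log2 fold changes lay between 0.30 and 0.37 after quantile normalization. Before normalization mmu-miR-181b-5p was at 0.953-fold in type H ECs, and the others were at 1.17-fold to 1.30-fold. The mean profile itself differed by 0.29, while mmu-miR-29a-3p, mmu-miR-29b-3p and mmu-miR-29c-3p differed by 0.31, 0.54 and 0.016. It is thus an average of unequal changes, and how far each guide strand lay from it was not computed. The points share slides, and the likeness is a description with no test. mmu-miR-199a-5p is also on the list of stromal and mural markers, and mmu-miR-199a-5p and mmu-miR-30a-5p are on the matrix-linked list.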

How the data were processed

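RNA of 3 type H and 3 type L samples was hybridised to 1-colour Agilent miRNA arrays. For each array the authors deposited spot and probe intensities, background-subtracted by Agilent Feature Extraction 10.7.1.1 and not normalized between arrays, with a detection flag per miRNA that was used for the filter. The authors also deposited a table of log2 values, described in their methods as quantile-normalized; its column medians of -3.32 to -3.26 are the level of miRNAs not detected, and the offset of its floor is unknown. The labels describe labelled cRNA where the methods describe Cy3-labelled small RNA, and the files do not settle which was used.

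Total probe intensities were summed over the distinct probes of each miRNA (4415 probes, 1881 miRNAs), quantile-normalized on the linear scale over all miRNAs, set to at least 1 and taken to log2. A miRNA was tested if flagged as detected on every array of either cell type, as in the authors' methods, which kept 311 and removed 1570. The test was limma 3.58.1 (lmFit, then eBayes; R 4.3.3), fitted to the 6 arrays together, and p was adjusted by Benjamini-Hochberg with 0.05 as threshold. The methods tie no test to the arrays, and the two-tailed Student test that they give for any comparison of 2 groups was run as an alternative. Ratios within arrays were compared by exact two-sided permutation (scipy 1.17.1). The limma fit was tested on simulated data with independent noise. Those data held no tied values and no slide effect, so they do not address these limits. The number of arrays limits the precision, and the p-values measure only the spread between these samples. Over the 231 miRNAs detected everywhere, arrays of the same cell type had correlations of 0.998 to 0.999, and of different cell types 0.928 to 0.943.

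Named miRNAs were the family arms, the 4 largest rises and falls past the threshold on the matrix-linked list (only 2 fell), the 5 most like profiles, and marker lists by counts. On the muscle list of 3, mmu-miR-206-3p alone was detected, at 72.9 to 90.7 in type H and 49.6 to 53.9 in type L ECs. The members and lists were chosen with earlier results of these data known. Alternatives covered normalization, signal, background correction, filter, floor, test, array weights, the replicate number and each array left out. Sequences and positions are from RefSeq (GRCm38.p6), where all 7 arms matched by name. The labels do not say whether replicates with the same number came from the same mice, and the main fit took the samples as unpaired.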

Additional observations from a re-analysis of the deposited data

How the results depend on the processing

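Of 210 values recomputed under alternatives, 191 kept their direction and their side of the threshold, or for counts stayed within 1.5 times. The ratios among them could change only in direction, since their exact p cannot be under 0.10. mmu-miR-29a-3p did so in all 21, from 0.19 to 0.46, and mmu-miR-29b-3p in 20 of 21, from 0.41 to 0.67. Without a filter mmu-miR-29b-3p had an adjusted p of 0.051 at an unchanged log2 fold change of 0.54, mmu-miR-29b-1-5p one of 0.054 at 0.49, 413 miRNAs passed against 270, and 1 family member passed against 3. In that fit 1165 of the 1881 miRNAs had the floor value on all arrays, which makes limma's shared spread unreliable. The main fit also held miRNAs with 1 shared value on all arrays of a cell type, such as mmu-let-7a-5p in type H ECs. The effect of such ties on the shared spread of the main fit was not tested. mmu-miR-29c-3p reversed to -0.15 with 75th percentile scaling, to -0.051 with the percentile taken over all miRNAs and to -0.054 without normalization, and with the brightest probe it was past the threshold at 0.13 (adjusted p = 0.029 from limma). mmu-miR-29b-1-5p was no longer past it at 0.14 with 75th percentile scaling, at 0.24 without normalization and at 3.62 (adjusted p = 0.33) with the totals as deposited. The last hold the signal of mmu-miR-29a-3p. The cause of the other changes was not tested. With the sum of detected probes only, chosen after seeing the data, mmu-miR-29b-1-5p was at 1.37.

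The ratio of mmu-miR-29b-1-5p to mmu-miR-29b-3p, -0.048, reversed to 3.13 with the totals as deposited, 0.011 with the mean processed signal, 2.90 in the authors' log2 table, 0.42 with the brightest probe and 0.84 with detected probes only, was -0.43 with normexp, and without single arrays ran from -0.22 to 0.10. The other ratios kept their sign in all 16 alternatives each.

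When single arrays were left out, the log2 fold changes ran from 0.28 to 0.36 for mmu-miR-29a-3p, 0.47 to 0.67 for mmu-miR-29b-3p, -0.011 to 0.030 for mmu-miR-29c-3p, which was negative without type L replicate 1, and 0.43 to 0.59 for mmu-miR-29b-1-5p. The miRNAs past the threshold numbered 260 to 266, the matrix-linked ones 10 to 12 and the family members 3. The methods' t-test put 266 of 311 past an unadjusted p of 0.05 and 264 past it after adjustment.

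Replicates with the same number did not deviate together (correlations -0.0055, -0.025 and 0.12). With the replicate block 262 miRNAs and 3 family members passed, and mmu-miR-29b-1-5p had an adjusted p of 0.037. Slide as a block was not run, because each slide held 1 cell type. mmu-miR-29a-5p gave no tested value under the filter, and mmu-miR-29b-1-5p none among miRNAs detected on all arrays.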
